A study of Mus musculus with 6 samples.

Results

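Amino acid transporters were followed in epididymal white adipose tissue (eWAT) of cachectic and control mice. The set holds 37 genes of the solute carrier families 1, 3, 6, 7, 16, 36, 38 and 43, taken by their gene names from the 55039 genes of the deposited count and FPKM tables. All 37 were found, and 35 of them were among the 17296 genes with enough reads to be tested. The exceptions were Slc3a1, with 3 to 10 reads in each library, and Slc6a20a, with 0 to 115 reads. Male C57BL/6 mice aged 6 to 7 weeks received Lewis lung carcinoma (LLC) cells, a mouse lung tumor line of the same strain, under the skin of the lower back (cancer-associated cachexia, CAC) or phosphate-buffered saline alone (control, CONT). Tissue was taken 28 days later. Each group held 3 mice with 1 RNA-seq library each, so n = 3 per group throughout. The question was which of these transporters differ in RNA level between CAC and CONT eWAT.

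Amino acids cross membranes on carriers that differ in what they accept and in what drives them. Sodium-coupled carriers of the SLC1, SLC6 and SLC38 families load the cell against a gradient, exchangers of the SLC7 family trade one amino acid for another, and SLC36 and some SLC38 proteins move amino acids with protons, in part out of the lysosome. Most SLC7 exchangers reach the cell surface only when bound to a heavy chain, Slc3a2 or Slc3a1. In white fat, glutamine, alanine and the branched-chain amino acids enter and leave adipocytes through such carriers, and several of the genes are known to respond to amino acid shortage through the transcription factor ATF4.

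The libraries held 15713794 to 25926425 counted reads, and a CPM of 1 stood for 11.2 to 26.5 reads. CPM is a gene's reads scaled to the size of its library, here after TMM adjustment by edgeR. Mitochondrial genes took 30.2% of the reads of CONT replicate 1 and 3.89% to 5.04% of the other libraries. The 8 adipocyte markers (Adipoq, Plin1, Fabp4 and others) summed to 15981 to 35760 CPM in CONT and 13542 to 32974 CPM in CAC, so the labelled tissue carried its markers in every library, although Lep, the leptin gene, was at 4.0 and 0.42 CPM in CAC replicates 2 and 3 against 409 CPM or more elsewhere. Genes of other tissues and cells were also present. Epididymis genes (7 markers) summed to 9518 CPM in CONT replicate 3, 202 CPM in CONT replicate 1 and 0 to 2.80 CPM in the other libraries, and sperm genes (5 markers) to 1101 CPM in CONT replicate 2 and 1446 CPM in CAC replicate 3 against at most 13.8 CPM. Neutrophil genes (5 markers) summed to 2.32 to 44.4 CPM in CONT and 139 to 1091 CPM in CAC. Erythroid genes (5 markers) summed to 5678 CPM in CONT replicate 1, 261 and 392 CPM in CONT replicates 2 and 3, and 1853 to 2439 CPM in CAC, and their part in the transporter values was not tested. In whole tissue, fewer cells of a type and less RNA per cell cannot be told apart.

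The sequences just before the transcription start are shown for the 3 members that DESeq2 called with all libraries and in each fit with 1 library left out (Slc43a1, Slc38a2 and Slc1a3), for the shared heavy chain Slc3a2, and for Slc7a11, whose start carries a pair of matches to an ATF4 motif core. Each line holds the 250 bases before the RefSeq start (GRCm38.p6), written 5′ to 3′ on the gene's strand. Capitals mark matches to TGACNNNGC, the core of the antioxidant response element, in Slc43a1 and Slc38a2, and to TGATGNAA, the core bound by ATF4 with C/EBP factors, in Slc7a11. Slc1a3 and Slc3a2 held neither on either strand.
Slc43a1, chr2:84840073-84840322, plus strand: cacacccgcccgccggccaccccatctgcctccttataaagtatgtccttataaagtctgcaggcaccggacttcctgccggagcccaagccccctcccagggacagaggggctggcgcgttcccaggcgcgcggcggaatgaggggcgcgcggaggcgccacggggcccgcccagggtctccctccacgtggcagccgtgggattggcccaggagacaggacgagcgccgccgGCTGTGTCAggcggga
Slc38a2, chr15:96699729-96699978, minus strand: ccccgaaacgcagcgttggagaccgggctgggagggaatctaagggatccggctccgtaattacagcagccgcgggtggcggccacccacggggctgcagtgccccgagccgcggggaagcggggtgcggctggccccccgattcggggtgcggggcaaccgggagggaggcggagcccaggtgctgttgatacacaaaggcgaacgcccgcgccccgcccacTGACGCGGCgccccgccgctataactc
Slc1a3, chr15:8710808-8711057, minus strand: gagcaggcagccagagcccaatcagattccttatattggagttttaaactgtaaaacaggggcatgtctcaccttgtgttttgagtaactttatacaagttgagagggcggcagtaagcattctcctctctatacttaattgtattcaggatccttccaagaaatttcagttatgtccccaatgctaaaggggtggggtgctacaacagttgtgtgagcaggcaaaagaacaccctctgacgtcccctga
Slc3a2, chr19:8713898-8714147, minus strand: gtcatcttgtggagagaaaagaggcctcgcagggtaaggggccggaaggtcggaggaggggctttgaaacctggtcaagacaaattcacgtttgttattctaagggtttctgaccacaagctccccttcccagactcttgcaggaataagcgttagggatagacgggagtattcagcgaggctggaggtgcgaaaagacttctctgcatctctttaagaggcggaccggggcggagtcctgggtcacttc
Slc7a11, chr3:50443614-50443863, minus strand: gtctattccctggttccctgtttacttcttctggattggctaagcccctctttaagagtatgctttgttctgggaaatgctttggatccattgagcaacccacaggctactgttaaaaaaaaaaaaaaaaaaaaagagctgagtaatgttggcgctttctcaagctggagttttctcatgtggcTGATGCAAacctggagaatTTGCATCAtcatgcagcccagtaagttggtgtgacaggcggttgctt

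RefSeq promoters of 300 bases, 250 before and 50 after the start, were found for 26 of the 37 members, with 39 windows in all. TGATGNAA lay in 3.97% of all 32851 windows and, among the members, in those of Slc1a4, Slc7a7 and Slc7a11. TGACNNNGC lay in 12.4% of all windows and in those of 7 members (Slc36a1, Slc38a2, Slc43a1, Slc6a13, Slc6a9, Slc7a1 and Slc7a6). The glucocorticoid response element, searched as its palindrome, lay in none of the member windows and in 0.00913% of all. The start of Slc38a2 was rich in G and C (73% of the window, 41 CpG), that of Slc43a1 likewise (67.7%, 26 CpG), while that of Slc1a3 was not (45.3%, 3 CpG), against a median of 52.7% and 7 CpG over all windows. These matches are a description of the letters and not of binding. The known amino acid response element of Slc38a2 lies in an intron, outside the window.

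Between the groups, 5 transporters were higher in CAC and 1 was lower at an adjusted p under 0.05 by DESeq2, and none by edgeR's quasi-likelihood test. The higher ones were Slc43a1 and Slc7a8, carriers of large neutral amino acids, Slc38a2, a sodium-coupled carrier of small neutral amino acids, Slc1a3, a glutamate and aspartate carrier, and Slc3a2, the shared heavy chain. Their fitted differences ran from 1.38 to 2.44 on the log2 scale, which is 2.61- to 5.41-fold. Slc7a4, an SLC7 member with no established transport activity, was the lower one.

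By edgeR, 0 of 35 tested members had an adjusted p under 0.05 (0% of all genes tested), and the smallest adjusted p among them was 0.215. At an unadjusted edgeR p under 0.05, 6 members were higher in CAC (Slc1a3, Slc3a2, Slc7a8, Slc43a1, Slc43a3 and Slc38a2), which is 17.1% of the tested members against 6.31% of all genes tested. Only Slc7a4 was lower, 2.86% against 6.95% of all genes. DESeq2 gave an adjusted p to 36 members and called 5 of them higher (13.9% against 3.22% of 17160 genes) and 1 lower (2.78% against 2.4%). On simulated counts with the dispersion of these libraries, 41.7% of DESeq2 calls were false, well above its threshold, against 5.49% of edgeR calls. DESeq2 recovered 73.5% of the genes set to change and edgeR 43%, so edgeR missed many changed genes in the simulation. The CAC libraries all lay above the CONT libraries for 6 members (the same as in the list above, with Slc36a2 in place of Slc7a8), 17.1% against 11.8% of all genes. They lay below for Slc7a4 and Slc38a3, 5.71% against 10.7%. The excess of higher over lower members was not seen under every setting, since voom with sample quality weights gave 7 higher and 7 lower at an unadjusted p under 0.05 (12.4% and 15.9% of all genes).

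The counts depended on single libraries. Without CONT replicate 1 the unadjusted edgeR test gave 3 higher and 4 lower members (8.33% and 11.1%, against 7.30% and 8.28% of all genes in that fit). The groups then did not overlap for 6 members that were higher and 11 that were lower in CAC (16.7% and 30.6%, against 18.1% and 19.6% of all genes), so the balance of directions was the reverse of that with all libraries. Without CONT replicate 2 the unadjusted test gave 3 higher and 2 lower (8.57% and 5.71%, against 4.0% and 5.30% of all genes). Without CAC replicate 1 the groups did not overlap for 8 higher and 5 lower members (22.2% and 13.9%, against 17.7% and 15.7% of all genes). DESeq2 called 3 members, all higher (Slc1a3, Slc43a1 and Slc38a2), when CONT replicate 2, CAC replicate 2 or CAC replicate 3 was left out, 8.33% against 1.65% to 1.82% of all genes. Without CONT replicate 3 it called these with Slc3a2 and Slc7a8 (13.9% against 3.26%) and none lower. Without CONT replicate 1 it called 4 higher, the 3 with Slc7a8, and Slc6a20a, Slc7a4 and Slc38a10 lower (11.1% and 8.33%, against 5.84% and 5.18% of all genes). Without CAC replicate 1 it called 5 higher, the 3 with Slc3a2 and Slc7a8, and Slc1a5 and Slc6a13 lower (13.9% and 5.56%, against 3.93% and 3.97%).

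As a set the transporters did not move one way. The median log2 fold change was -0.04 over the 35 tested members and -0.06 over all genes, with 15 members above 0 and 20 below. Of the 26 tested members outside the 9 described with full values, 19 differed by less than 0.5 on the log2 scale.

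**Figure D1:**
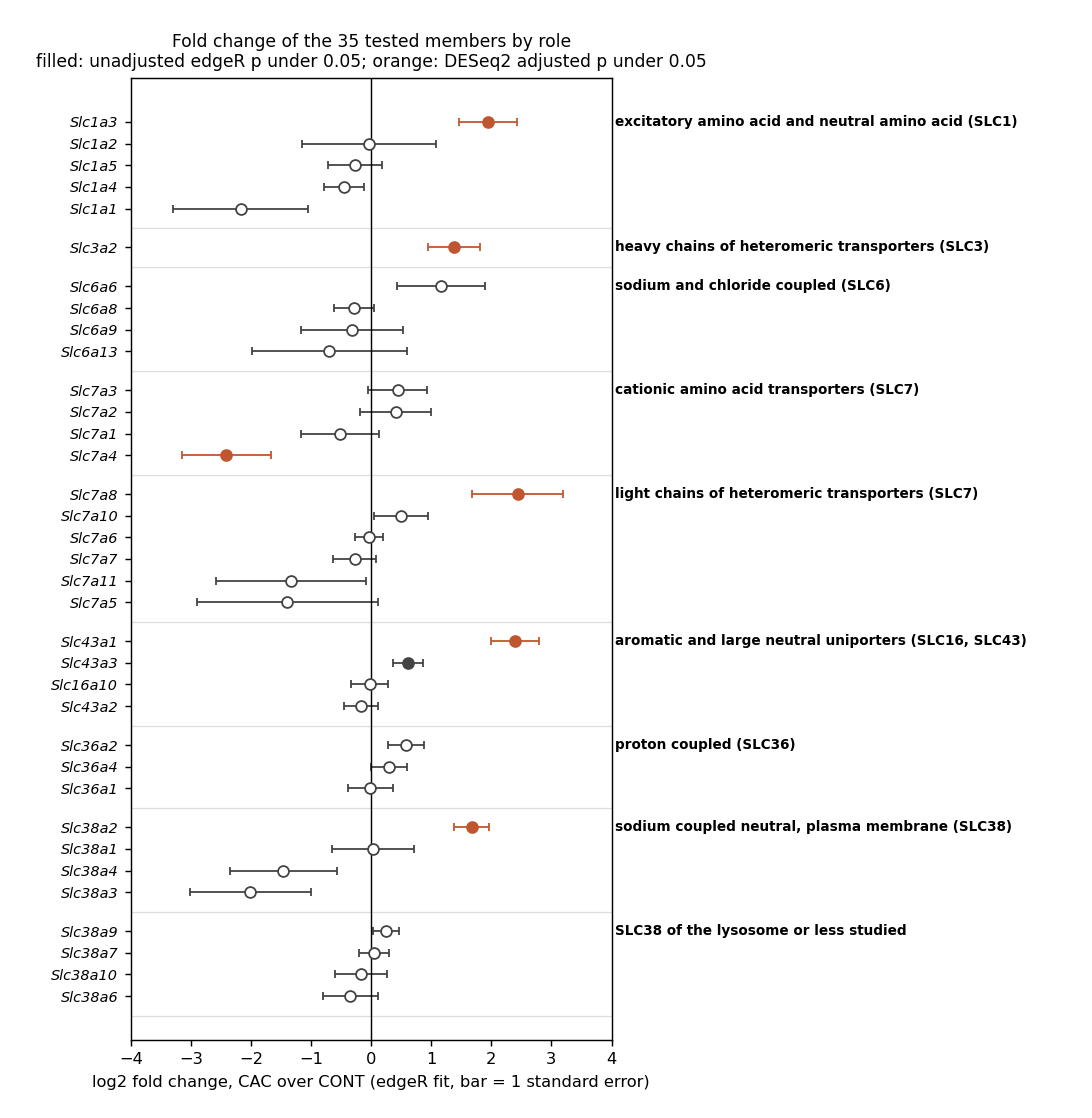
Fitted log2 fold change of CAC over CONT (x axis, edgeR, bar = 1 standard error) for the 35 tested members, grouped by role, with filled points for an unadjusted edgeR p under 0.05 and orange for a DESeq2 adjusted p under 0.05. Slc7a8, Slc43a1, Slc1a3, Slc38a2 and Slc3a2 stand to the right and Slc7a4 to the left, while Slc1a1, Slc7a5, Slc7a11 and Slc38a3 lie to the left with wide bars.

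The large neutral amino acid carriers come first. Slc43a1 (LAT3; ENSMUSG00000027075, GRCm38 chromosome 2, 84838850 to 84863594) is a uniporter of leucine, isoleucine, valine, phenylalanine and methionine that needs no heavy chain. Its level was 23.7, 31.8 and 34.8 CPM in the CONT libraries and 78.8, 184 and 212 CPM in CAC replicates 1 to 3. The groups did not overlap, and the lowest CAC library was above the highest CONT library. The fitted log2 fold change was 2.39 ± 0.40 (SE, 5.25-fold), with an edgeR p of 0.000709 and an adjusted p of 0.215. DESeq2 gave an adjusted p of 3.44e-06 with all libraries and at most 0.0013 with any 1 library left out. The RefSeq start shown above lies inside the deposited gene, not at its first base, and the same holds for Slc3a2.

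Slc7a8 (LAT2; ENSMUSG00000022180, chromosome 14, 54722209 to 54781946) is an exchanger of neutral amino acids that pairs with Slc3a2. It stood at 27.8, 19.1 and 44.3 CPM in CONT and at 33.3, 174 and 286 CPM in CAC. CAC replicate 1 lay within the CONT range, and the other CAC libraries were well above it. The difference was 2.44 ± 0.76 on the log2 scale (95% confidence interval 0.62 to 4.25), with an edgeR adjusted p of 0.289 and a DESeq2 adjusted p of 0.0174. The log2 fold change was 1.78 without CAC replicate 3 and 2.96 without CAC replicate 1, and the DESeq2 call was kept in 3 of 6 fits with 1 library left out.

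Slc43a2 (LAT4), the close relative of Slc43a1, was at 33.0 ± 8.92 CPM (SD) in CONT and 29.4 ± 7.59 CPM in CAC. Slc16a10, a carrier of aromatic amino acids, was at 42.8 ± 5.70 and 42.0 ± 17.2 CPM. The fitted log2 differences of these 2 genes were -0.17 ± 0.29 and -0.03 ± 0.31. Slc43a3 (ENSMUSG00000027074, chromosome 2, 84936579 to 84958509), named as an SLC43 member but known as a carrier of purine nucleobases, was at 120, 135 and 145 CPM in CONT and at 272, 175 and 166 CPM in CAC. Its groups did not overlap, with CAC replicate 1 the highest library. The log2 fold change was 0.61 ± 0.25 with an edgeR p of 0.0475 (adjusted 0.371) and a DESeq2 adjusted p of 0.171.

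**Figure D2:**
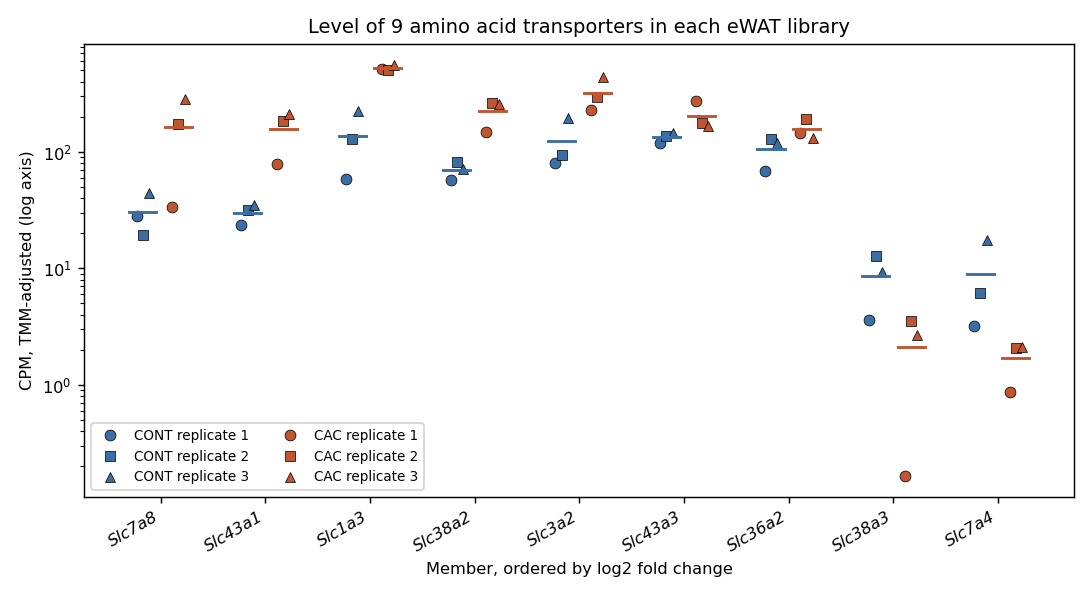
CPM (y axis, log scale) of the 9 members with full values in each of the 6 libraries, blue for CONT and orange for CAC, with a marker shape per replicate number and a line at each group mean. The libraries of Slc43a1, Slc1a3, Slc38a2 and Slc3a2 separate by group, CAC replicate 1 of Slc7a8 sits at 33.3 CPM among the CONT libraries, and Slc38a3 and Slc7a4 are low in CAC.

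Slc3a2 (CD98 heavy chain; ENSMUSG00000010095, chromosome 19, 8706882 to 8723369) carries the SLC7 light chains to the cell surface. Its level was 79.6, 93.2 and 195 CPM in CONT and 227, 293 and 439 CPM in CAC. The groups did not overlap, but CONT replicate 3 and CAC replicate 1 were close. CAC was higher by 1.38 ± 0.43 on the log2 scale, with an edgeR p of 0.0163 (adjusted 0.29) and a DESeq2 adjusted p of 0.0384. With 1 library left out, the DESeq2 adjusted p stayed under 0.05 in 2 of 6 fits. The other heavy chain, Slc3a1, was at 0.113 to 0.404 CPM in all libraries.

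Among the 6 light chains, Slc7a8 alone had an unadjusted edgeR p under 0.05. Slc7a10 (Asc-1), an exchanger of alanine, serine and cysteine and a surface marker of white adipocytes, was the most abundant light chain by mean FPKM in both groups (FPKM is reads per kilobase of gene, scaled for library size). It reached 25.9, 58.1 and 72.6 FPKM in CONT and 109, 52.1 and 64.1 FPKM in CAC, a log2 fold change of 0.50 ± 0.45 (edgeR adjusted p = 0.651). Its exons overlap those of Lrp3 on the opposite strand, and Lrp3 had 6862 reads over the 6 libraries against 23059 of Slc7a10, so their reads may not be fully separable. Slc7a6 and Slc7a7, the y+L exchangers of cationic for neutral amino acids, differed by -0.04 ± 0.23 and -0.28 ± 0.36 on the log2 scale. Exons of Slc7a7 overlap Oxa1l, a gene of the other strand with 8342 reads over the 6 libraries to the 894 of Slc7a7, and the reads may not be fully separable.

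Slc7a5 (LAT1), the classic partner of Slc3a2, varied more within groups than between them. It was at 5.53, 23.9 and 337 CPM in CONT and at 6.73, 33.4 and 99.3 CPM in CAC. CONT replicate 3, the library with the epididymis genes, was 14.1 times the next CONT library. The log2 fold change was -1.40 ± 1.51 with all libraries and 1.66 without CONT replicate 3, so its direction was set by that library.

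Slc7a11 (xCT), the cystine and glutamate exchanger whose promoter is printed above with its pair of TGATGNAA matches, showed the same pattern at a low level. Its 3 CONT libraries held 0.624, 0.569 and 12.6 CPM and its CAC libraries 0.862, 1.82 and 2.79 CPM. The log2 fold change was -1.33 ± 1.25 and became 1.62 without CONT replicate 3.

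Summed over the 6 light chains, the level was 35.4, 71.9 and 158 FPKM in CONT and 121, 91.4 and 138 FPKM in CAC. The ratio of Slc3a2 to that sum was 0.363 ± 0.133 (SD) in CONT and 0.637 ± 0.172 in CAC. The groups overlapped in this ratio, since CONT replicate 1 was at 0.517 and CAC replicate 1 at 0.439. Slc7a8 made up 4.24% to 12.7% of the light chain sum in CONT and 4.54%, 30.9% and 33.9% in CAC replicates 1 to 3.

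**Figure D3:**
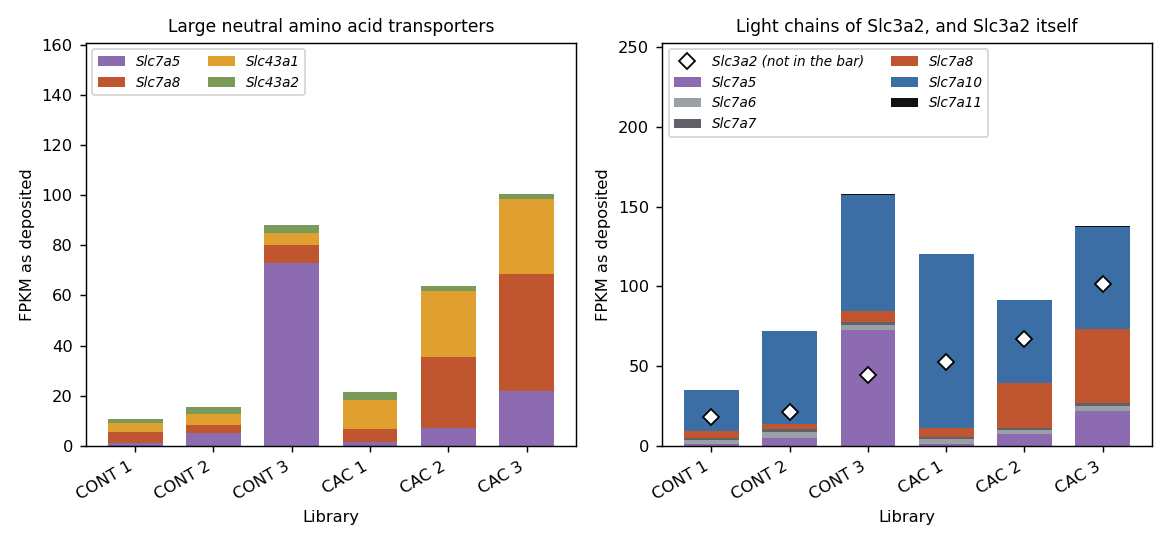
Stacked FPKM per library (y axis, linear from 0) of 4 large neutral amino acid carriers (left) and of the 6 light chains of Slc3a2 with Slc3a2 as diamonds (right). Slc7a5 makes up 83.0% of the left bar in CONT replicate 3, while Slc7a8 and Slc43a1 make up most of it in CAC replicates 1 to 3 and also in CONT replicate 1, at 41.3% and 30.8%.

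Slc38a2 (SNAT2; ENSMUSG00000022462, chromosome 15, 96687392 to 96699730) takes up alanine, serine, glutamine and other small neutral amino acids with sodium (system A). It was at 57.1, 81.3 and 70.8 CPM in CONT and at 149, 264 and 256 CPM in CAC. All CAC libraries were above all CONT libraries, and the CONT libraries were close to each other. The log2 fold change was 1.68 ± 0.29 (3.19-fold), with an edgeR p of 0.000862 and an adjusted p of 0.215. By DESeq2 the adjusted p was 1.28e-05, and at most 0.00168 with 1 library left out.

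The other system A carriers were much lower and did not share this difference. Slc38a1 was at 9.09 ± 6.46 CPM in CONT and 9.27 ± 1.79 CPM in CAC, and Slc38a4 at 5.09 ± 4.26 and 1.85 ± 1.00 CPM (log2 fold change -1.47 ± 0.89, edgeR adjusted p = 0.5). The fold change of Slc38a4 was -0.68 without CONT replicate 2. Slc38a2 made up 75.2% to 95.4% of the summed FPKM of system A in CONT and 96.0% to 96.6% in CAC. Slc38a3 (SNAT3; ENSMUSG00000010064, chromosome 9, 107650634 to 107669530), which moves glutamine in either direction with sodium and protons, was at 3.57, 12.8 and 9.31 CPM in CONT and 0.164, 3.51 and 2.68 CPM in CAC. The groups did not overlap but nearly met, and the log2 fold change of -2.02 ± 1.01 had an edgeR adjusted p of 0.43 and a DESeq2 adjusted p of 0.249. It was -1.40 without CAC replicate 1.

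Slc1a3 (GLAST; ENSMUSG00000005360, chromosome 15, 8634124 to 8710764) takes up glutamate and aspartate with sodium and is best known from glia. It stood at 58.4, 128 and 224 CPM in CONT and at 510, 504 and 561 CPM in CAC. The CAC libraries were close to each other and all were above the CONT libraries, which spread widely. On the log2 scale the difference was 1.94 ± 0.48 (3.84-fold), with an edgeR p of 0.00558 (adjusted 0.244) and a DESeq2 adjusted p of 0.00232. With 1 library left out the DESeq2 adjusted p was at most 0.0402.

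Slc1a5 (ASCT2), a sodium-coupled exchanger that carries glutamine, was by far the most abundant member. It was at 370, 383 and 429 FPKM in CONT and at 565, 223 and 210 FPKM in CAC. CAC replicate 1 was above and the other CAC libraries below every CONT library, and the log2 fold change was -0.27 ± 0.45. Without CAC replicate 1 it was -0.83, and DESeq2 then called it lower. Slc1a5 alone made up 59.9% ± 9.94 (SD) of the summed FPKM of all 37 members in CONT and 40.1% ± 14.1 in CAC.

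Slc1a4, its relative for alanine, serine and cysteine, was at 6.25 ± 1.23 CPM in CONT and 4.55 ± 0.65 CPM in CAC. Slc1a2, the main glutamate carrier of brain, was at 0.089 to 1.84 CPM. Slc1a1, the neuronal and epithelial glutamate carrier, was at 7.58, 5.08 and 73.7 CPM in CONT and 10.3, 2.14 and 6.68 CPM in CAC. Its log2 fold change of -2.17 ± 1.12 became 0.03 without CONT replicate 3. Exons of Slc1a1 and 4430402I18Rik overlap on opposite strands, and the strand setting of the counting was not given, so their reads may not be separable.

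The cationic carriers were low. Slc7a1 (CAT1), the general arginine and lysine carrier, was at 11.0, 19.8 and 70.7 CPM in CONT and at 24.8, 19.3 and 26.6 CPM in CAC. Its log2 difference was -0.52 ± 0.65, and 0.63 without CONT replicate 3. Slc7a2 was at 9.25 ± 3.92 and 12.3 ± 8.36 CPM, and Slc7a3 under 1 CPM in every library. Neither of them had an unadjusted edgeR p under 0.05.

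Slc7a4 (ENSMUSG00000022756, chromosome 16, 17572018 to 17583214) was at 3.21, 6.13 and 17.5 CPM in CONT and 0.862, 2.06 and 2.11 CPM in CAC. The groups did not overlap, and CONT replicate 3 was the highest. The difference was -2.41 ± 0.74 on the log2 scale, with an edgeR p of 0.0147 (adjusted 0.285) and a DESeq2 adjusted p of 0.0303. It was -1.46 without CONT replicate 3, and DESeq2 called it in 1 of 6 fits with 1 library left out, that without CONT replicate 1. Its exons overlap those of P2rx6 on the opposite strand, and P2rx6 was lower in CAC too (5.62, 9.94 and 6.87 CPM against 3.74, 3.39 and 1.09 CPM, log2 fold change -1.45 ± 0.55). The strand setting of the counting was not given, so reads of the 2 genes may not be separable.

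In the SLC6 family none of the 4 tested members had an unadjusted edgeR p under 0.05. Slc6a6, the taurine carrier, was at 25.6, 181 and 214 CPM in CONT and 185, 410 and 344 CPM in CAC (log2 fold change 1.16 ± 0.74), and 0.68 without CONT replicate 1. Slc6a13, a carrier of GABA and taurine, was at 39.0, 55.4 and 64.1 CPM in CONT and at 90.9, 4.96 and 1.55 CPM in CAC. CAC replicate 1 was the highest of all libraries and the other CAC libraries the lowest, so the log2 fold change moved from -0.70 ± 1.29 to -3.96 without that library, and DESeq2 called it lower only in that fit. The same library kept Lep at 512 CPM, while CAC replicates 2 and 3 held 4.0 and 0.42 CPM. Slc6a8, the creatine carrier, was at 41.0 ± 14.9 and 33.8 ± 8.15 CPM, and Slc6a9, the glycine carrier, at 9.63 ± 7.61 and 7.70 ± 2.5 CPM. Exons of Slc6a9, with 1221 reads in all, overlap those of B4galt2 on the other strand, with 1320, so reads may not be fully separable. B4galt2 differed by -0.97 ± 0.24 on the log2 scale. Slc6a20a, a proline carrier, was at 0, 5.04 and 2.98 CPM in CONT and 0.123, 0.363 and 0.076 CPM in CAC, and it was not tested by edgeR in the filtered table. With no filter it was lower at an unadjusted edgeR p under 0.05, and DESeq2 called it lower without CONT replicate 1.

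None of the 3 proton-coupled SLC36 carriers had an unadjusted edgeR p under 0.05. Slc36a2 (PAT2; ENSMUSG00000020264, chromosome 11, 55158470 to 55185077), a carrier of glycine, alanine and proline, was at 68.5, 128 and 119 CPM in CONT and at 146, 191 and 132 CPM in CAC. The groups did not overlap but were close, with a log2 fold change of 0.58 ± 0.29 (95% confidence interval -0.13 to 1.28), an edgeR p of 0.0937 and an adjusted p of 0.439. The log2 fold change ran from 0.36 to 0.74 over the fits with 1 library left out. Slc36a1 and Slc36a4 differed by -0.02 ± 0.37 and 0.29 ± 0.30. Slc38a9, the arginine sensor of the lysosome, and Slc38a7, which exports glutamine from it, differed by 0.25 ± 0.22 and 0.05 ± 0.25. Slc38a10 and Slc38a6 differed by -0.17 ± 0.43 and -0.35 ± 0.46, and without CONT replicate 1 Slc38a10 was at -0.53 and called lower by DESeq2. None of these lysosomal or less studied SLC38 genes had an unadjusted edgeR p under 0.05.

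**Figure D4:**
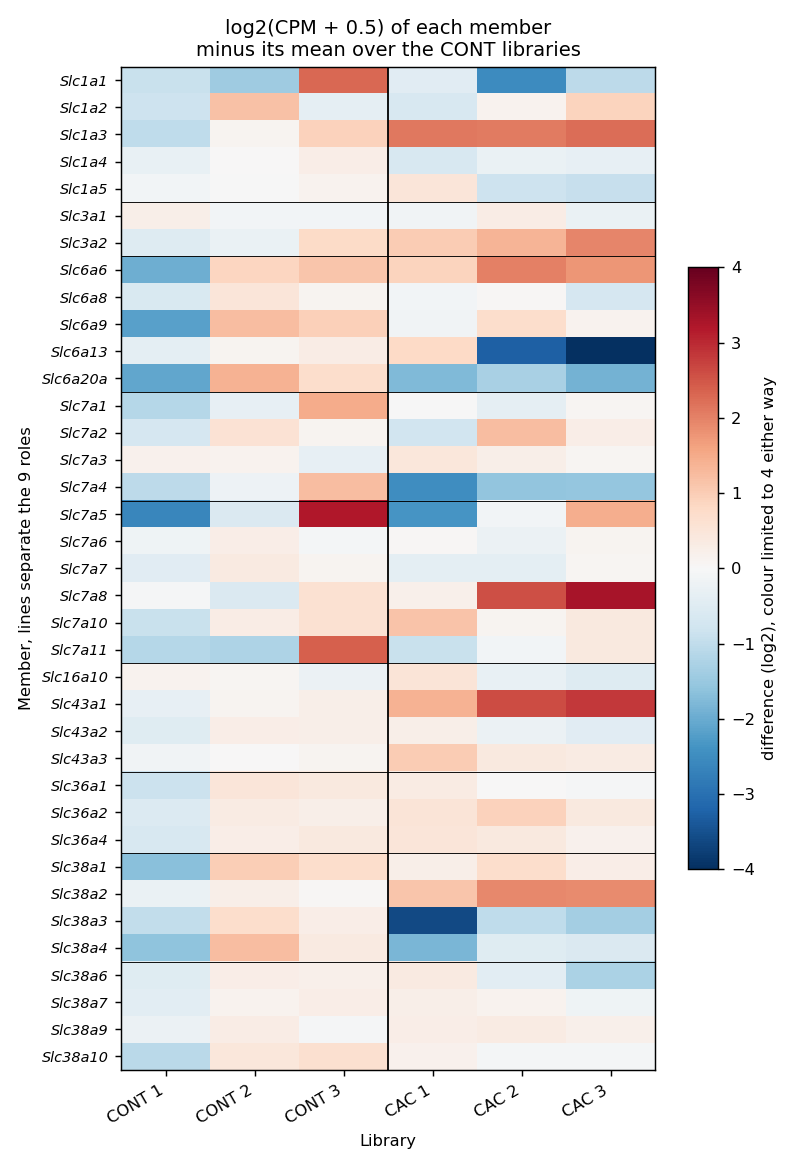
Difference of log2(CPM + 0.5) of each of the 37 members from its mean over the CONT libraries, per library, with colour limited to 4 either way. CONT replicate 1 is blue for many members (it is the lowest library for 21 of them), CONT replicate 3 is red for Slc1a1, Slc7a1, Slc7a5 and Slc7a11, and Slc43a1, Slc38a2 and Slc1a3 are red in all CAC libraries.

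The libraries CONT replicate 1, CONT replicate 3 and CAC replicate 1 stood apart among the members. CONT replicate 1, with the high mitochondrial share, was the lowest of the 6 libraries for 21 members and the highest for 0. The same count over all genes was not taken, so this cannot be read as particular to the transporters. CONT replicate 3 was over 3 times both other CONT libraries for Slc1a1, Slc7a1, Slc7a5 and Slc7a11, and the epididymis markers were 9518 CPM there. In CAC replicate 1, Slc7a5 and Slc7a8 were under the other CAC libraries by over 3-fold and Slc6a13 was above them. The part of the epididymis genes in these values was not tested.

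**Figure D5:**
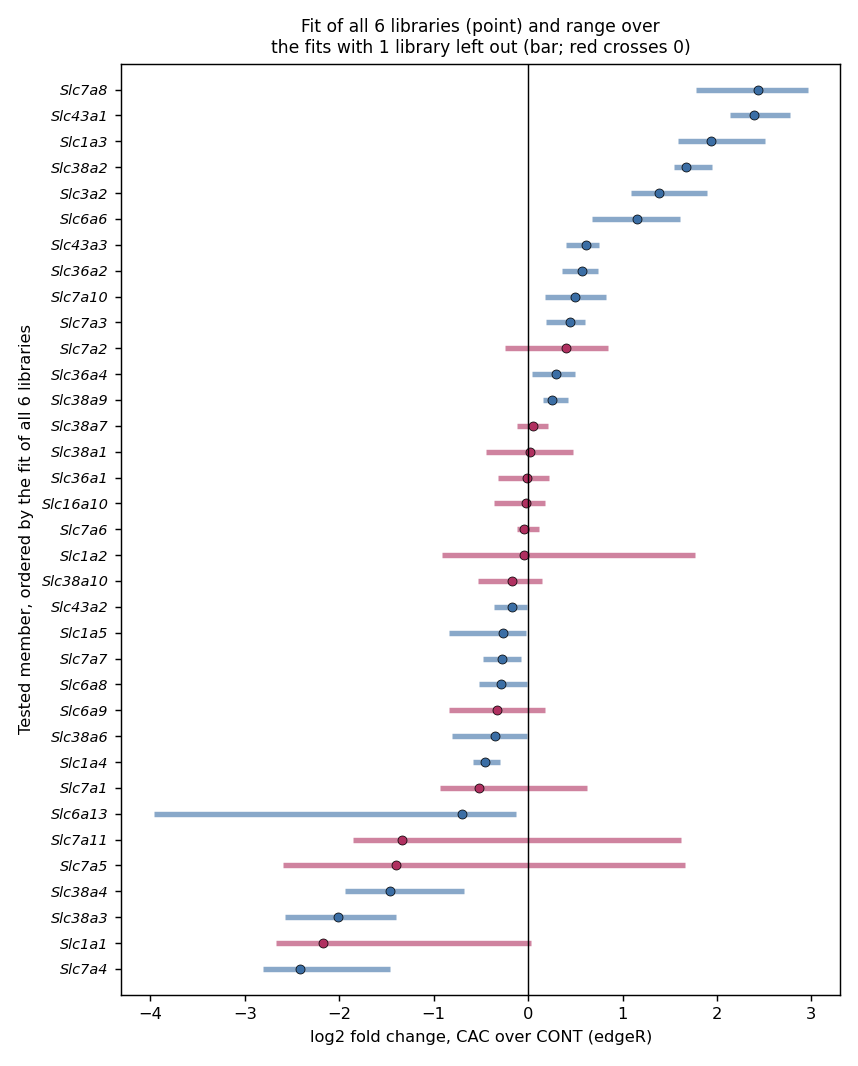
Log2 fold change of each tested member with all 6 libraries (point) and its range over the 6 fits with 1 library left out (bar), blue where the range keeps 1 sign and red where it crosses 0. The range crosses 0 for 13 members, and stays over 1.5 for Slc7a8, Slc43a1, Slc1a3 and Slc38a2.

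With 1 library left out at a time, 22 of 35 members kept their sign and 13 did not. Slc38a2 kept 1.55 to 1.95, Slc43a1 2.14 to 2.77 and Slc1a3 1.59 to 2.51 on the log2 scale. The members that changed sign included Slc7a5 (-2.60 to 1.66), Slc7a11 (-1.86 to 1.62) and Slc7a1 (-0.94 to 0.63).

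Markers of several cell types differed between the same libraries. The neutrophil markers Mmp8, Retnlg, Ly6g, S100a9 and S100a8 were all higher in CAC, 5 of 5 by DESeq2. Their sum was largest in CAC replicate 3 (1091 CPM), the library in which Slc3a2, Slc7a8, Slc43a1 and Slc1a3 were also highest. Slc1a3 differed little between the CAC libraries (510, 504 and 561 CPM), and CAC replicate 3 also held 1446 CPM of the sperm markers. The summed macrophage markers overlapped between the groups (515 to 1588 CPM in CONT and 783 to 1324 CPM in CAC), and of the 8 markers 1, Cd14, was higher by DESeq2, at 20.3 to 48.9 CPM in CONT and 70.0 to 97.2 CPM in CAC. B and plasma cell markers (7) summed to 53.8 to 93.4 CPM in CONT and 9.02 to 20.4 CPM in CAC, with 2 lower by DESeq2. Of 6 fibroblast and progenitor markers 3 were lower by DESeq2, and their sum was 1781 to 2280 CPM in CONT and 1330 to 1873 CPM in CAC. The 5 brown or beige adipocyte markers summed to 11.6 to 21.4 CPM in CONT and to 11.1, 44.2 and 106 CPM in CAC replicates 1 to 3. The neutrophil sum and several members, among them Slc7a8, Slc3a2, Slc43a1 and Slc7a5, rose in the same order. Ucp1, the defining brown fat gene, was at most 0.535 CPM in any library. The part of these cell types in the transporter values was not tested.

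Companion genes of amino acid metabolism were read beside the transporters, by list, with the genes of smallest p named. Of 14 genes of the ATF4 and amino acid starvation response, 4 had an unadjusted edgeR p under 0.05 and were higher in CAC, and 0 were lower (6.31% and 6.95% of all genes), with a median log2 fold change of 0.35 over the list against -0.06 over all genes. DESeq2 called the same number higher, against 3.22% of all genes. Asns, asparagine synthetase, was at 54.6 ± 7.41 CPM in CONT and 174 ± 17.4 CPM in CAC (log2 fold change 1.67 ± 0.20, edgeR adjusted p = 0.127). Ddit4, an inhibitor of mTORC1, was 2.89 ± 0.25 higher and Chac1, a glutathione-degrading enzyme, 2.64 ± 0.45 higher on the log2 scale. Atf4 itself, named outside the rule, was at 311, 82.9 and 94.4 CPM in CONT and 117, 136 and 138 CPM in CAC, a log2 fold change of -0.32 ± 0.52. Its highest library was CONT replicate 1, with the high mitochondrial share, and without it the log2 fold change was 0.57 ± 0.15, with all CAC libraries above the remaining CONT libraries. Of 21 genes of lysosomal amino acid sensing, 4 were higher at an unadjusted edgeR p under 0.05 and 0 lower, against 6.31% and 6.95% of all genes, and the median was -0.23. The groups did not overlap for 5 that were higher and 5 that were lower in CAC, against 11.8% and 10.7% of all genes. Sesn2, which is also counted in the ATF4 list, was higher by 1.54 ± 0.35, Flcn by 0.80 ± 0.24 and Sesn1 by 0.63 ± 0.22.

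Of 8 enzymes that make or use glutamine, glutamate and alanine, 3 were higher and 1 was lower in CAC at an unadjusted edgeR p under 0.05 (6.31% and 6.95% of all genes), and the median was 0.35. Glul, glutamine synthetase, was at 1682 ± 490 CPM in CONT and 4037 ± 554 CPM in CAC (log2 fold change 1.26 ± 0.36). Gpt2, the mitochondrial alanine aminotransferase, was higher by 1.44 ± 0.27 and Glud1, glutamate dehydrogenase, by 1.41 ± 0.35. Of 11 tested mitochondrial amino acid carriers, 3 were higher and 2 lower at that threshold (6.31% and 6.95% of all genes), with a median of -0.05. They included Sfxn1, a serine carrier (0.73 ± 0.21), Slc25a22, a glutamate carrier (0.70 ± 0.21), and Slc25a15, the ornithine carrier (-0.76 ± 0.24).

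Among 11 genes of cystine, taurine and glutathione metabolism (median 0.29), 1 was higher and 1 lower at an unadjusted edgeR p under 0.05. The shares of all genes at that threshold were 6.31% and 6.95%. The higher one was Gclc, of glutathione synthesis (1.06 ± 0.35), and the lower one Ggt1, a glutathione-cleaving enzyme (-2.81 ± 0.88). Ggt7 was at -2.03 ± 1.00. Of 12 tested genes among the other plasma membrane and lysosomal transporters, 0 were higher and 1 lower at the same threshold (median -0.12). All genes were at 6.31% and 6.95%, as above. The lower one was Slc38a5 (-5.14 ± 1.33), which reached 44.2 CPM in CONT replicate 3 and was under 4 CPM elsewhere. Slc7a9 differed by -3.36 ± 1.61 and Slc15a4 by 0.42 ± 0.21. By edgeR, 0 genes of these lists had an adjusted p under 0.05. At that threshold DESeq2 called 3 higher in the glutamine, glutamate and alanine list, 2 in lysosomal sensing and 1 among the mitochondrial carriers. It called 1 lower in the cystine, taurine and glutathione list and 0 among the other transporters. Of all genes, DESeq2 called 3.22% higher and 2.4% lower.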

How the data were processed

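RNA of eWAT from 3 CAC and 3 CONT mice was sequenced by the authors, who used HISAT2 2.0.5 with the Ensembl release 94 mouse assembly and featureCounts 1.5.0-p3 (tools per the submitters' processing notes). The strand setting is not given in the sources used here. The deposited counts are whole reads per gene, and the FPKM also deposited by the authors are counts per kilobase of gene, scaled for depth by a factor other than the plain sum of counts. Coordinates are those of GRCm38 in the deposited table. Groups came from the sample labels.

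Counts were analysed with edgeR 4.0.16 in R 4.3.3 (TMM, filterByExpr by group, robust quasi-likelihood test, Benjamini-Hochberg over 17296 genes, threshold 0.05), with limma 3.58.1 and DESeq2 1.42.0 as alternatives. Fold changes on FPKM used log2(FPKM + 1) or log2(FPKM + 0.1) over genes with at least 0.5 FPKM in at least 3 libraries, and understate the change of low genes. Intervals are 95%. Sequences came from RefSeq (GRCm38.p6) and exon overlaps from GENCODE M21. On simulated counts with the dispersion of these libraries, false calls came near the threshold by edgeR and well above it by DESeq2. P-values measure the spread between mice, 1 library each, and an exact permutation test of 3 against 3 cannot go below 0.1.

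The members, the lists and the tests were chosen with earlier results of these data known. Every member is named. Full values were given for members with an unadjusted edgeR p under 0.05, groups that do not overlap, or a DESeq2 adjusted p under 0.05, and for Slc3a2, and of each companion list the up to 3 genes with the smallest p were named. The arginine and creatine list is not reported here. Alternatives were other normalizations and filters, mitochondrial genes left out, the replicate block, each library left out, DESeq2, voom with sample quality weights and limma on FPKM. Chosen after seeing the data were DESeq2 with 1 library left out and 2 pairs of libraries left out.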

Additional observations from a re-analysis of the deposited data

How the results depend on the processing

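Over the alternatives, edgeR and limma on FPKM called 0 members at an adjusted p under 0.05, DESeq2 called 6 (Slc1a3, Slc3a2, Slc7a4, Slc7a8, Slc43a1 and Slc38a2) and voom with sample quality weights 3, all higher (Slc1a3, Slc43a1 and Slc38a2; 8.57% against 2.78% of all genes, with 0 lower against 2.73%), and DESeq2 with 1 library left out 3 to 7. The count at an unadjusted p under 0.05 was 7 (6 higher and 1 lower, against 6.31% and 6.95% of all genes), 14 by voom (7 and 7, against 12.4% and 15.9%), 10 by DESeq2 (6 and 4, against 4.51% and 5.21%) and 4 without CONT replicate 2 and CAC replicate 3 (3 and 1, against 2.17% and 2.83%). With 1 library left out it was 5 to 7 by edgeR (3.55% to 7.30% of all genes higher and 3.69% to 8.28% lower) and 7 to 13 by DESeq2 (3.24% to 6.94% and 4.32% to 6.27%). Members whose groups do not overlap numbered 8 (6 higher and 2 lower), 9 to 17 with 1 library left out (13.3% to 18.1% of all genes higher and 13.1% to 19.6% lower), and 9 to 16 in the DESeq2 fits with 1 library left out (9.63% to 12.8% and 9.1% to 15.4%). Without CONT replicates 1 and 3 there were 25, 12 higher and 13 lower, which is 32.4% and 35.1% of the members against 30.6% and 26.8% of all genes, so the larger counts came with a larger background. The median log2 fold change of the members lay between -0.34 and 0.21 over all settings.

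The deviations of same-numbered mice of the 2 groups correlated at 0.31, -0.15 and -0.22. Such values show no consistent pairing and, from so few mice, cannot exclude it. With the replicate block, 0 members were called, 8 had an unadjusted p under 0.05 (6 higher and 2 lower, 17.1% and 5.71% against 5.23% and 6.29% of all genes) and the groups of 8 did not overlap (6 and 2, against 11.8% and 10.7%). The direction of the 9 members described in full was kept in every alternative that fitted them. The standard error of the log2 fold change ran from 0.22 (Slc38a9) to 1.51 (Slc7a5), and low members such as Slc1a2, Slc3a1 and Slc7a3 were counted in few reads.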
